A study of Homo sapiens with 12 samples.

Results

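HSF1 is the master transcription factor of the heat shock response, and it is best known at the protein-coding genes of chaperones. Here the HSF1 CUT&Tag peaks of Huh7 cells that lay at the start of a noncoding gene and at no protein-coding start were described. A peak belonged to this set when its summit, the base of highest signal, lay within 1 kb of the outermost start of a GENCODE gene that is not protein-coding and farther than 1 kb from every outermost protein-coding start. On chromosomes 1 to 22 and X, 629 of the 7129 HSF1 peaks met both conditions, or 8.82% (95% Wilson interval 8.19% to 9.50%). Another 3622 peaks had a protein-coding start within 1 kb, 947 of them with a noncoding start there as well, and 2878 lay away from all starts.

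Huh7 is a human hepatocellular carcinoma cell line. The cells were untreated and grown at 37°C, and CUT&Tag, in which an antibody guides a transposase that cuts and tags the DNA beside its target, was carried out with an antibody against HSF1 and with one against H3K27ac, a histone acetylation mark of active promoters and enhancers. Each antibody gave 1 library with no replicate and was called without a control library, so the differences have no check across replicates and come without p-values. The HSF1 library held 3604911 tags, of which 2712212 (75.2%) were kept after duplicate removal, and the H3K27ac library held 15737890, of which 896393 (5.70%) were kept. Intervals of shares and of differences between shares cover counting error only. Each pair of groups was compared over 15 shares, without adjustment of the intervals for that number.

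Long noncoding RNAs (lncRNAs) are transcribed by RNA polymerase II from promoters that resemble those of coding genes, and many of them start back to back with a coding gene on the opposite strand. Small nuclear RNAs (snRNAs) build the spliceosome, and small nucleolar RNAs guide modification of ribosomal RNA. RNA polymerase III makes the U6 snRNAs, the 7SL RNA of the signal recognition particle, the 7SK RNA and the vault RNAs. Pseudogenes are copies of genes that have lost their function, and some of them are fragments of the mitochondrial genome that were inserted into the nuclear chromosomes. HSF1 itself binds the heat shock element, repeated nGAAn units in alternating orientation, and the CCAAT box is the site of NF-Y at many promoters.

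Leaving mitochondrial-like and telomere repeat peaks aside, the highest peak of the set by fold enrichment lay at the lncRNA LINC01003. Its summit was in an exon 58 bp downstream of the start. The peak spans chr7:152463658-152464233 (hg38), with a pileup of 38 extended tags and a fold enrichment of 14.1, the ratio of the pileup to the local background with 1 added to both. The bases within 100 bp of its summit, chr7:152463744-152463944, are shown on the plus strand because this window holds 3 copies of CCAAT, set in capitals.
LINC01003: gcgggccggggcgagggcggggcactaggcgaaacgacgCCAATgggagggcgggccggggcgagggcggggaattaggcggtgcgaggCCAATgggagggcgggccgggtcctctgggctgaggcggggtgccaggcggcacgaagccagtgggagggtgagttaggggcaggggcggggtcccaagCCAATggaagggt

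The second highest by fold enrichment lay 51 bp upstream of the lncRNA ENSG00000291177 on chromosome 19, with a pileup of 44 and a fold enrichment of 14. Its window, chr19:19776410-19776610 on the plus strand, held no heat shock element. It held 3 copies of ACTACAA, the core of the site of the zinc finger factor ZNF143, which are in capitals here as ACTACAA or as its complement TTGTAGT.
ENSG00000291177: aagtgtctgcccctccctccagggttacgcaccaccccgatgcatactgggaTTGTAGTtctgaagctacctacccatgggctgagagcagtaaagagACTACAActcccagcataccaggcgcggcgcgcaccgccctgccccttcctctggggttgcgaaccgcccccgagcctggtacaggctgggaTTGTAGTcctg

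Of the 629 peaks, 450 (71.5%, 67.9% to 74.9%) had a lncRNA as their nearest noncoding gene and 118 (18.8%, 15.9% to 22%) a pseudogene. The other classes were small, with 21 peaks at microRNA (miRNA) genes, 15 at snRNA genes, 10 at miscellaneous RNAs, 7 at loci typed TEC, which still await experimental evidence, 4 at loci that the annotation types as artifacts, 3 at small nucleolar RNAs and 1 at an rRNA gene. The nearest genes were 618 different ones, and 136 peaks had 2 or more noncoding starts within 1 kb. Most of the lncRNAs are little described. An Ensembl identifier was the only name of the nearest lncRNA for 242 of the 450 peaks (53.8%), 73 lay at LINC genes and 71 (15.8%) at genes named as antisense to another.

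The share of starts with a peak differed widely between classes. A summit within 1 kb of several starts counted for each of them. The intervals of these shares take starts as separate and are too narrow to that extent. An HSF1 summit lay within 1 kb of 517 of the 16091 lncRNA starts that are away from coding starts (3.21%, 2.95% to 3.50%), against 4302 of 19970 protein-coding starts (21.5%, 21.0% to 22.1%), a difference of -18.3 points (-19.0 to -17.7). Over all noncoding starts away from coding starts the share was 2.03%, and over both kinds of start together it was 8.65%. lncRNA starts thus stood above the noncoding background and far below coding starts. The share was 1.60% (1.11% to 2.30%) of 1755 miRNA starts, 0.649% (0.387% to 1.09%) of 2156 miscellaneous RNA starts and 0.985% (0.519% to 1.86%) of 914 small nucleolar RNA starts. None of 45 starts of small Cajal body RNAs had a peak, which allows a share of up to 6.67% by the limit of 3 counts.

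**Figure D1:**
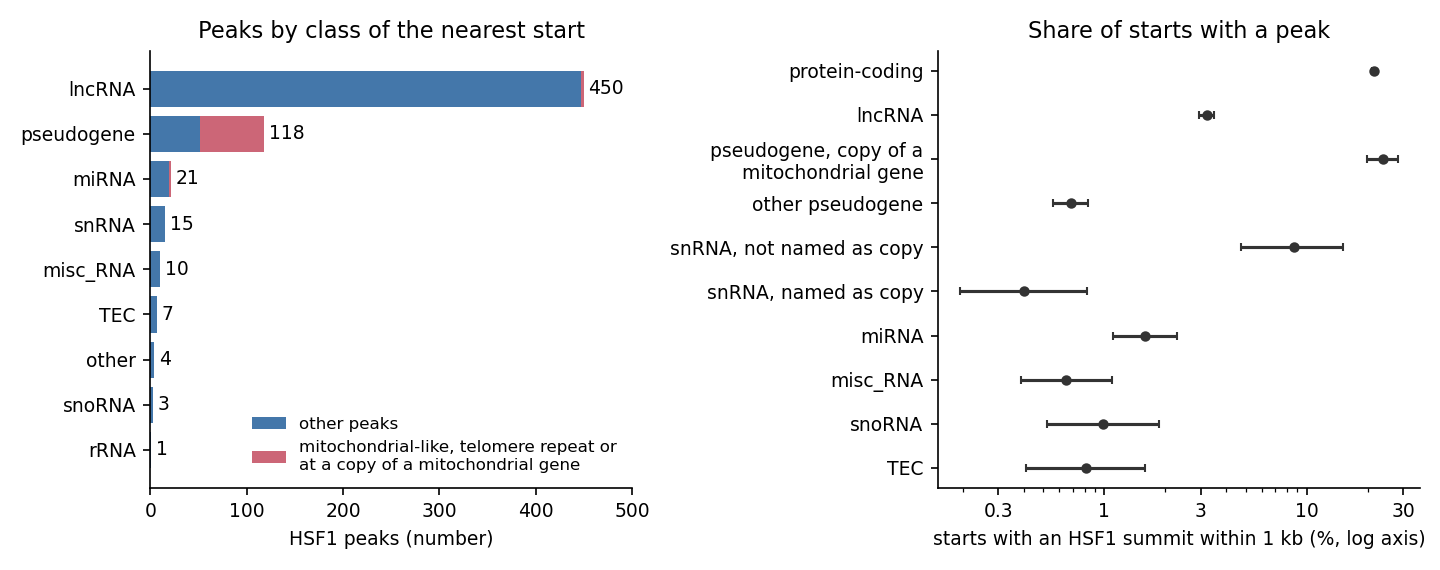
Left, number of HSF1 peaks by the class of the nearest noncoding start, with peaks that are mitochondrial-like, telomere repeat or at a copy of a mitochondrial gene in red ("other" is the annotation's artifact type). Right, percent of the annotated starts of each class with an HSF1 summit within 1 kb on a log axis, points with 95% Wilson intervals, where protein-coding starts (21.5%) and copies of mitochondrial genes (23.8%) lie far to the right of lncRNA starts (3.21%). A summit near several starts counts for each of them.

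Within 2 of the classes the annotated genes differed by kind. Of 116 snRNA genes not named as pseudogene copies 10 had a peak (8.62%, 4.75% to 15.1%), but of 1749 snRNA genes named as such copies only 7 did (0.400%, 0.194% to 0.824%), a difference of 8.22 points (4.33 to 14.7). Among pseudogenes, 95 of the 399 starts named as copies of mitochondrial genes had a peak (23.8%, 19.9% to 28.2%), against 97 of 14222 other pseudogene starts (0.682%, 0.559% to 0.831%). That difference was 23.1 points (19.2 to 27.5). Neighbouring copies can share a summit, as MTATP6P1, MTATP8P1 and MTCO3P12 on chromosome 1 do. Such starts are not separate observations, so this interval and those of the gene families are too narrow. Copies of MTND1, a subunit of respiratory complex I, had a peak at 13 of 33 starts and copies of MTCO1, a subunit of cytochrome c oxidase, at 14 of 48. The lowest share among families of 20 or more copies was that of MTCO3, with 5 of 37, and its interval (5.91% to 28.0%) overlapped that of MTND1 (24.7% to 56.3%).

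Peaks with mitochondrial sequence were therefore kept apart. The 13-base words within 100 bp of each summit were looked up in the mitochondrial genome, and 36 of the 629 peaks, 32 of them at pseudogenes, had 20% or more of them there and are called mitochondrial-like. One more lay in telomere repeat. Together these repeat-like peaks were 37 (5.88%, 4.30% to 8.00%) of the set, against 1.33% of all HSF1 peaks, 1 of 3622 peaks at coding starts and 57 of 2878 (1.98%) away from starts. The difference from coding starts was 5.85 points (4.26 to 7.98). The rule of the set takes in annotated mitochondrial pseudogenes, so this difference follows in part from the rule and is given as a description. The word rule missed many of the named copies. Of the 60 peaks at genes named as copies of mitochondrial genes 26 passed it, and the other 34 had word shares of 1.59% to 18%, a median fold enrichment of 7.29 and a median GC content of 40.05%.

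The windows of 2 such peaks are shown to let the range be seen, with every base that lies in a 13-base word of the mitochondrial genome in capitals. ENSG00000289901 (chr13:109424124-109424324, minus strand) is nearly all mitochondrial and MTCO1P40 (chr17:53105950-53106150, plus strand) in part.
ENSG00000289901: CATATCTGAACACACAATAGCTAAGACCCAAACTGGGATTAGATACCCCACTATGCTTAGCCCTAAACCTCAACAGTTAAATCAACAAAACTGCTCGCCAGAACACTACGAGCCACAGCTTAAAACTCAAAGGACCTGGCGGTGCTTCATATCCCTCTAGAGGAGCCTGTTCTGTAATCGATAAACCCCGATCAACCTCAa
MTCO1P40: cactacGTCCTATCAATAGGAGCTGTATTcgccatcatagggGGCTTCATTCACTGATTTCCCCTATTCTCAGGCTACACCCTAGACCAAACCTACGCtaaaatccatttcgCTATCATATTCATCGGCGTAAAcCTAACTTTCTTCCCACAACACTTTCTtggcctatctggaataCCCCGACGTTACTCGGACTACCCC

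These were also among the highest peaks of the set. ENSG00000289901 had a pileup of 115 and a fold enrichment of 30.4, and MTCO1P40 had 64 and 20.4. The next were ENSG00000249780, a processed pseudogene on chromosome 4, with a fold enrichment of 18.8, MTCO2P2 on chromosome 18 with 18.6 and the lncRNA ENSG00000289474 on chromosome 2 with 16.7. Of the 10 peaks of the set with the highest fold enrichment 7 were repeat-like. Their median fold enrichment was nevertheless ordinary, 6.72 (95% interval of the median 5.15 to 10.2) for the 36 mitochondrial-like peaks, and their local background was high as well, at a median of 2.09 tags against 0.960 in the peaks that were not repeat-like. The extreme was a run of 5 mitochondrial-like summits at chr1:629244-633952, where pileups were 99 to 170 over a background of 37.2 to 40.2 and fold enrichment was 2.43 to 4.21. Neither deposited list holds a peak on the mitochondrial genome itself. The H3K27ac library also had peaks at such sequence, with 19 of its 1291 peaks mitochondrial-like (1.47%, 0.944% to 2.29%) against 70 of 7129 HSF1 peaks (0.982%, 0.778% to 1.24%), and at copies of mitochondrial genes it had a peak at 23 of 399 starts (5.76%) against 22 of 14222 other pseudogene starts (0.155%). Whether reads from mitochondrial DNA were placed at these nuclear copies was not tested.

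Over the whole set the heights were modest. The median fold enrichment of the 629 was 6.86 (6.71 to 6.99), against 7.22 (7.14 to 7.30) at coding starts and 6.47 (6.41 to 6.54) away from starts. The ratio of the medians to coding starts was 0.951, or 0.918 to 0.978 from the outer bounds of both intervals. The median pileup was 13, 14 and 11 tags in the same order, so a typical peak rested on few tags. lncRNA peaks had a median fold enrichment of 6.89 (6.74 to 7.07), miRNA peaks of 6.25 (5.17 to 6.86) and snRNA peaks of 5.71 (5.19 to 6.74).

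**Figure D2:**
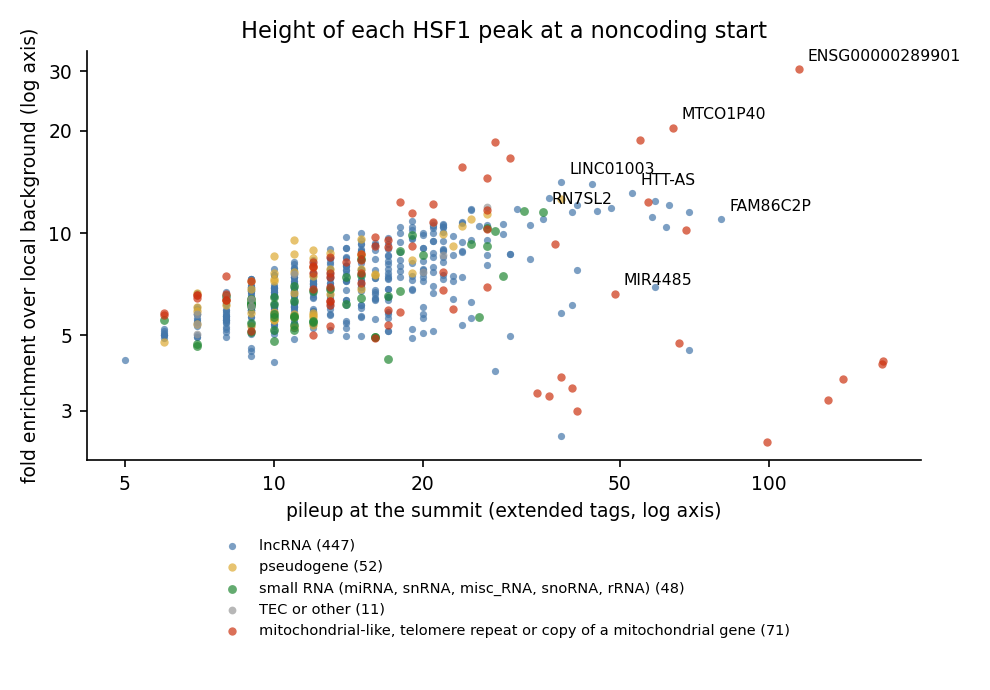
Pileup (extended tags, log axis) against fold enrichment over the local background (log axis) for each of the 629 HSF1 peaks, coloured by class, with 7 peaks named. Mitochondrial-like peaks lie both within the cloud and at its edges, from ENSG00000289901 with a fold enrichment of 30.4 to the chromosome 1 run with pileups of 99 to 170 and fold enrichment of 2.43 to 4.21.

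The 10 peaks of highest fold enrichment that were not repeat-like had values of 12 to 14.1. Of them, 1 lay at a gene named as a copy of a mitochondrial gene that the word rule missed. After LINC01003 and ENSG00000291177 came HTT-AS, which is antisense to the Huntington disease gene, with a pileup of 53 and a fold enrichment of 13.1. Its summit lay 199 bp downstream of the HTT-AS start and 342 bp from an annotated transcript start of HTT. Next were ENSG00000291149 on chromosome 7 (12.7), FAM86GP on chromosome 11 (12.6) and ENSG00000289222 on chromosome 16 (12.4). ENSG00000248787 on chromosome 3 (12.1), ENSG00000286895 on chromosome 12 (12.1) and the TEC locus ENSG00000279407 on chromosome 19 (12) were also among them. Of these 10, ENSG00000248787 shared its place with an H3K27ac peak.

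The distance to the nearest noncoding start was part of the rule and is given as a description. Its median was 199 bp (quartiles 86 and 407 bp), 360 of 629 (57.2%, 53.3% to 61.0%) lay within 250 bp, and 352 (56.0%, 52.1% to 59.8%) lay upstream of the start. A further 194 (30.8%) fell in an exon and 60 (9.54%) in an intron of the nearest noncoding gene, and 23 (3.66%) lay beyond its far end, as happens with short genes. lncRNA summits were closer to their starts, at a median of 173.5 bp, and 60% (55.4% to 64.4%) of them were upstream. Of pseudogene summits 42.4% (33.8% to 51.4%) were upstream, a difference of 17.6 points (7.51 to 27.2). snRNA summits stood apart from their short genes, since only 3 of 15 lay within 250 bp and the median position was 340 bp downstream of the start.

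The set has no sharp edge at 1 kb. The 5 peaks just inside the limit, at 968 to 985 bp, had fold enrichments of 6.41, 6.28, 6.41, 10.5 and 5.77, and the 5 nearest outside it, at up to 1054 bp, had 7.29, 7.24, 6.35, 5.28 and 6.52. The 22 peaks in the last 100 bp inside had a median of 6.41 and the 15 in the first 100 bp outside one of 6.22. On the side of the coding starts, 32 peaks of the set had an outermost coding start less than 500 bp beyond the limit, with a median fold enrichment of 6.68, and the 346 excluded peaks more than 500 bp from a coding start had one of 6.46.

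The nearest outermost coding start was far for most peaks, at a median of 33.1 kb (quartiles 11.8 and 90.1 kb), but annotated coding transcripts that begin inside a gene changed this picture. A coding transcript start lay within 1 kb of 164 of the 629 summits (26.1%, 22.8% to 29.6%), and for 151 of these (92.1%) the coding gene ran on the strand opposite to the noncoding one. The share was 142 of 450 (31.6%, 27.4% to 36%) for lncRNAs and 11 of 21 for miRNAs, but 5 of 118 (4.24%, 1.82% to 9.54%) for pseudogenes. TIPARP-AS1 with TIPARP (fold enrichment 11.8), MORF4L2-AS1 with MORF4L2 (10.9), NECTIN3-AS1 with NECTIN3 (10.8) and SNHG10 with GLRX5 (10.6) were such pairs, and the MORF4L2-AS1 summit lay 1 bp from a MORF4L2 transcript start. The name noncoding thus holds for the outermost starts only, and for these 164 peaks a noncoding and a coding promoter cannot be told apart.

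Peaks at 4 loci that involve chaperones or their partners were picked out after their values had been seen. No list of such genes was counted, so they do not describe the group. At 3 of them a coding transcript start lay within 1 kb. HSPA2-AS1 lies opposite HSPA2, a testis-enriched HSP70 chaperone. Its summit was 259 bp upstream of the antisense gene and 114 bp from an HSPA2 transcript start, with a pileup of 21 and a fold enrichment of 10.4. MIR639 had a summit 213 bp upstream of it and 8 bp from a transcript start of DNAJB1, an HSP40 co-chaperone and a classical HSF1 target, with a fold enrichment of 8.88. MIR1181 and CDC37, which delivers kinases to HSP90, shared a summit of fold enrichment 5.79. AHSA2P, a pseudogene of the HSP90 ATPase activator family, had no coding transcript start within 1 kb and a fold enrichment of 8.33. None of these 4 had an H3K27ac peak.

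The peaks with a coding transcript start nearby differed from the other 465 in sequence. Their median GC content within 100 bp of the summit was 68.2% against 59.7%, and GGGCGG, the GC box bound by Sp1-type factors, occurred in 67.1% against 37.0%, a difference of 30.1 points (21.3 to 38.1). The median fold enrichment was 7.07 (6.84 to 7.41) against 6.76 (6.55 to 6.96), and the shares with an H3K27ac peak were 9.76% and 11.2%, a difference of -1.43 points (-6.28 to 4.64).

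An H3K27ac CUT&Tag peak shared at least 1 bp with 68 of the 629 peaks (10.8%, 8.62% to 13.5%), where 8.56% of all HSF1 peaks did so. The share was 8.56% (7.69% to 9.51%) at coding starts, a difference of 2.25 points (-0.140 to 5.06), and 8.06% (7.12% to 9.11%) away from starts, a difference of 2.75 points (0.318 to 5.58). Without the repeat-like peaks it was 58 of 592 (9.80%, 7.66% to 12.5%), 1.26 points from coding starts (-1.08 to 4.06). Whether the share at noncoding starts was separated from that at coding starts depended on the settings. The interval of the difference excluded 0 at 500 bp (2.69 points), at 2 kb (2.52), with any transcript start (2.77), under a stricter q-value (3.04) and with 50% of the peak covered (1.91). It included 0 without near copies, peaks that resemble another HSF1 peak in sequence, where the difference was 0.834 points (-1.48 to 3.61). It also included 0 with the HSF1 summit inside the H3K27ac peak (1.68, -0.275 to 4.09), without peaks near a coding transcript start (2.62, -0.101 to 5.93) and without repeat-like peaks and named mitochondrial copies (1.14, -1.24 to 4.01). Without repeat-like peaks it was 5.63% for fold enrichments under 6 and 21.2% (11 peaks) for those of 10 or more, and 5.21% and 15.0% at coding starts.

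The H3K27ac pileup at the 68 shared places had a median of 10 and ran from 4 to 55. The highest values were 55 and 54, at 2 genes named U2 on chromosome 17, copies of the snRNA that recognises the branch point, where the HSF1 pileups were 20 and 18. ENSG00000290854 on chromosome 1 had 39, with an HSF1 pileup of 45 and a fold enrichment of 11.6. Both summits at ROCK1P1, a copy of part of the ROCK1 kinase gene on chromosome 18, overlapped peaks with a pileup of 31. Of the 36 mitochondrial-like peaks 9 had an H3K27ac peak (25%, 13.8% to 41.1%), 15.1 points more than the rest (3.49 to 31.3). Of the 9, 3 lay in the run of 5 summits on chromosome 1, so the interval, which takes peaks as separate, is too narrow. Among peaks of the set that were not repeat-like, sharing was 3.79% at HSF1 pileups under 10 and 50% at 40 or more. The comparison was not matched for pileup.

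Some peaks of the set belonged to repeated families. Near copies are peaks that share 50% or more of their 13-base words with the surroundings of another HSF1 summit, which held for 44 of the 629 (7%, 5.25% to 9.26%), for 3.25% of all HSF1 peaks and for 0.745% at coding starts. The difference from coding starts was 6.25 points (4.47 to 8.53). Of peaks away from starts 5.59% (4.81% to 6.49%) were near copies, a difference of 1.4 points (-0.561 to 3.8) with 0 inside the interval. Without repeat-like peaks the difference from peaks away from starts was 2.34 points (0.352 to 4.81). Of the 42 near copies that were not repeat-like 11 (26.2%) had an H3K27ac peak, 17.6 points more than the other peaks (6.44 to 32.7). Of these 11, 3 belonged to a single family of 5 peaks. Near copies are not separate observations, so the intervals for near copies are too narrow and this difference is given as a description.

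The largest families of near copies that were mostly in the set came from FAM86, a family named for a lysine methyltransferase that modifies elongation factor eEF2. The first had 5 peaks, at FAM86GP, FAM86EP, FAM86C2P, ENSG00000248787 and ENSG00000291186, with pileups of 38 to 80 and fold enrichments of 11.0 to 12.6, and 3 of them had an H3K27ac peak. The second had 4 in the set, at LINC02021 (fold enrichment 11.6), ENSG00000286895 (12.1), FAM86KP (7.64) and FAM86B3P (5.80). All 9 held CCAAT within 100 bp of the summit. Stretches of 61 bases are lined up on it for 8 of them, FAM86B3P not being shown, to see how alike they are, with CCAAT in capitals and the strand chosen so that it reads CCAAT.
FAM86GP (chr11:3422893-3422953, minus): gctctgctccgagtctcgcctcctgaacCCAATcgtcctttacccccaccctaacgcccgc
ENSG00000248787 (chr3:125916167-125916227, plus): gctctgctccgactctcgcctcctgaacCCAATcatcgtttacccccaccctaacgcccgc
ENSG00000291186 (chr11:71787092-71787152, plus): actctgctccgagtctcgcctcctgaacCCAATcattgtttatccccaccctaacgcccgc
FAM86EP (chr4:3955776-3955836, minus): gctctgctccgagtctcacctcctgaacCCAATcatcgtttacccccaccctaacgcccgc
FAM86C2P (chr11:67805710-67805770, minus): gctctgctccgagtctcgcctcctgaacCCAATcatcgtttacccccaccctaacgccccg
LINC02021 (chr3:130111868-130111928, minus): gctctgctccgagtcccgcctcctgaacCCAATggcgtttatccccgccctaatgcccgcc
ENSG00000286895 (chr12:8243341-8243401, minus): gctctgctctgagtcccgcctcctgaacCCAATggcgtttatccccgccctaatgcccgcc
FAM86KP (chr4:9152839-9152899, plus): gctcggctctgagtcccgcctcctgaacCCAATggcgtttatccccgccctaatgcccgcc

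Any pair of the first 5 stretches matched at 56 to 59 of the 61 bases, and any pair of the last 3 at 59 or 60, a range that does not cover FAM86B3P. Members of a family therefore share their sequence and are not separate observations, and whether reads of one copy were placed at another was not tested. How the authors' alignment treated reads with several equal matches is not stated.

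Of the 629 summits, 207 had CCAAT on one of the strands within 100 bp (32.9%, 29.4% to 36.7%). It occurred in 30.7% of all HSF1 summits, in 26% of windows of this length centred on all coding starts and in 27.1% on all noncoding starts away from them. Windows 5 kb to either side of the 629 summits held it in 25% (22.7% to 27.5%). The share was 36.9% (35.3% to 38.4%) at coding starts, a difference of -3.95 points (-7.84 to 0.126), and 22.5% (21.0% to 24.1%) away from starts, a difference of 10.4 points (6.51 to 14.4). The difference from coding starts was smaller within 50 bp (-1.76 points, -5.22 to 1.98) and 200 bp (-1.03 points, -5.25 to 3.19) of the summit. It was larger, with an interval that excluded 0, with starts within 2 kb (-5.74 points, -9.39 to -1.90). The same held without repeat-like peaks and named mitochondrial copies (-4.79 points, -8.85 to -0.512). Repeats of CCAAT were fewer than at coding starts. Of the 629 windows 65 (10.3%) held 2 or more copies, against 546 of 3622 (15.1%), a difference of -4.74 points (-7.20 to -1.88).

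A longer form is CCAAT preceded by 2 purines and followed by C or G and then a purine. In points it set the peaks further from coding-start peaks than CCAAT did, but less far from peaks away from starts. The longer form occurred in 64 of the 629 windows (10.2%, 8.05% to 12.8%), where the share of all HSF1 summits was 11.6%, of all coding starts 8.58% and of noncoding starts away from them 3%. At coding-start peaks it was 17.4% (16.2% to 18.7%), a difference of -7.27 points (-9.75 to -4.40), and away from starts 4.62% (3.91% to 5.45%), a difference of 5.55 points (3.27 to 8.26). In the windows 5 kb away it was 1.43% (0.909% to 2.26%). Peaks at lncRNAs held it in 11.8% (9.12% to 15.1%), 5.67 points below coding-start peaks (-8.62 to -2.15 for the difference), and pseudogene peaks in 4.24% (1.82% to 9.54%).

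The search within 100 bp of summits that lie within 1 kb of a start bounds the position of the longer form, which is given as a description. In the 64 windows it lay a median of 35 bp from the summit, and its median position was 79.5 bp upstream of the start, with 39 (60.9%, 48.7% to 71.9%) between 1 and 200 bp upstream. Its orientation was the same as that of the gene in 37 of 64. Among peaks that were not repeat-like, the 62 with the longer form had a median fold enrichment of 7.63 (7.04 to 8.66) and the other 530 one of 6.77 (6.59 to 6.94). The 8 with the highest fold enrichment, from 14.1 down to 10.5, are shown as examples in the orientation of CCAAT, with the longer form in capitals.
LINC01003 (chr7:152463815-152463855, plus): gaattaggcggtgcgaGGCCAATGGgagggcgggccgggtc
ENSG00000289222 (chr16:2905733-2905773, plus): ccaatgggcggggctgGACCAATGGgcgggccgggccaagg
MORF4L2-AS1 (chrX:103686755-103686795, plus): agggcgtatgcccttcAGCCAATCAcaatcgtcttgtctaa
ENSG00000289340 (chr14:75259260-75259300, minus): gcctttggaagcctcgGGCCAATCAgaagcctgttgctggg
SNHG10 (chr14:95534712-95534752, minus): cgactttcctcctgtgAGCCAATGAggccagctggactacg
ENSG00000289115 (chr19:42076040-42076080, minus): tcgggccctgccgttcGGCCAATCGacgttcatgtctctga
ENSG00000286161 (chr4:52722474-52722514, minus): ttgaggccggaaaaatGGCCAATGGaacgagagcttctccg
ENSG00000288872 (chr15:92882583-92882623, plus): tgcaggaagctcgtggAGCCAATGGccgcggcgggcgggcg

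GC content differs between these groups and moves with the motifs. Its median within 100 bp of the summit was 62.7% (61.7% to 63.7%) at the 629 peaks, 66.7% at coding starts and 55.7% away from starts. Within windows of 50% to 60% GC, without repeat-like peaks, the longer form occurred in 10.1% (6.14% to 16.3%) of peaks at noncoding starts, 24.6% (21.3% to 28.3%) at coding starts and 4.62% (3.43% to 6.21%) away. At 60% to 70% GC these shares were 13.2% (9.45% to 18.1%), 17.9% (16.2% to 19.7%) and 6.37% (4.81% to 8.39%). Peaks at noncoding starts thus lay between the other groups in both ranges, but their interval overlapped that of peaks away from starts at 50% to 60% and that of coding starts at 60% to 70%.

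The GC box and the ETS site followed the same order, and the ZNF143 and TATA letters did not. GGGCGG occurred in 44.8% (41.0% to 48.7%) of the 629 windows, in 67.4% at coding starts and in 24.9% away from starts. The background was 48.2% of all HSF1 summits, 46.9% of coding starts and 9.27% of noncoding starts. CCGGAAG, a site of ETS factors, occurred in 7.31% (5.53% to 9.62%), 14.7% and 3.34%, against 9.48% of all HSF1 summits, 10.2% of coding starts and 1.93% of noncoding starts. The differences from coding-start peaks were -22.6 points (-26.7 to -18.4) for GGGCGG and -7.43 points (-9.58 to -4.87) for CCGGAAG. The ZNF143 letters, ACTACAA, occurred in 2.23% (1.33% to 3.70%) of the 629, 3.48% at coding starts and 2.47% away from starts, with a difference from coding-start peaks of -1.25 points (-2.36 to 0.321). Their background was 2.96% of all HSF1 summits, 1.92% of coding starts and 2.06% of noncoding starts. TATAAA, the TATA box, occurred in 3.66% (2.45% to 5.43%) of the 629, 1.74% at coding starts and 4.59% away from starts. It was thus more frequent than at coding-start peaks, by 1.92 points (0.618 to 3.73), where the background was 3.06% of all HSF1 summits, 7.11% of coding starts and 12% of noncoding starts. Most of the 23 windows with it lay at mitochondrial copies. Of the 66 pseudogene peaks that were mitochondrial-like or so named 15 held TATAAA, against 1 of the 52 other pseudogene peaks, a difference of 20.8 points (9.04 to 32.4). The median GC content of the 66 was 40.3% and of the 52 it was 66.2%.

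The heat shock element was searched on both strands as GAA, TTC and GAA with 2 free bases between neighbours, and 1 of the 9 fixed bases was allowed to differ. It occurred in 13 of the 629 windows (2.07%, 1.21% to 3.50%), in 2.21% at coding starts, a difference of -0.142 points (-1.15 to 1.36), and in 2.74% away from starts. The background was 2.41% of all HSF1 summits, 3.04% of coding starts and 6.03% of noncoding starts, and the windows 5 kb away held it in 4.06% (3.10% to 5.30%). The element was thus no more frequent at the summits of the set than around them, in a comparison not matched for GC content. The median GC content was 62.7% at the summits and 43.3% in the windows 5 kb away. Under 50% GC, without repeat-like peaks, the element occurred in 4.55% (1.78% to 11.1%) of the windows of the set, and in 0.725% to 2.29% in the higher ranges. The copy with no mismatch was 1, at RNF216P1, and the 3 next by fold enrichment are set beside it to show the spread, with the 13 bases of the element in capitals.
RNF216P1 (chr7:4974384-4974416, minus): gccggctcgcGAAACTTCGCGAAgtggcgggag
MORF4L2-AS1 (chrX:103686792-103686824, plus): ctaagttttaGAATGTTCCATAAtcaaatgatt
MTND6P12 (chrX:5169014-5169046, plus): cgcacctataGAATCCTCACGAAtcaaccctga
ENSG00000273145 (chr22:46013518-46013550, minus): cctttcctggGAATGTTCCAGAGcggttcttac

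RNF216P1, named as a pseudogene of a ubiquitin ligase but typed and counted here as a lncRNA, had a fold enrichment of 7.47. MORF4L2-AS1, with 1 mismatch, had 10.9 and also carried the longer CCAAT form.

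**Figure D3:**
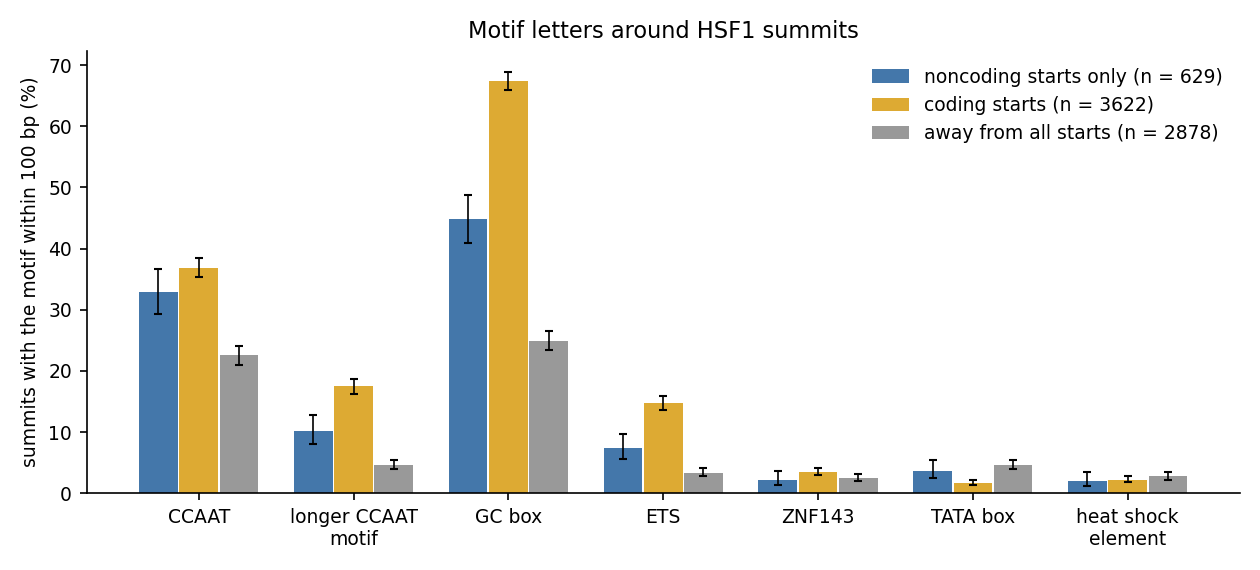
Percent of HSF1 summits with each motif within 100 bp on either strand, for 629 peaks at noncoding starts only, 3622 at coding starts and 2878 away from all starts, bars with 95% Wilson intervals. CCAAT, its longer form, the GC box and the ETS site lie between the other groups at noncoding starts, and the heat shock element runs from 2.07% to 2.74% over the 3 groups.

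To set the peaks against starts with no called HSF1 peak, the lncRNA starts with a summit within 1 kb were compared with the 15574 without one, over the 150 bases before and the 50 after each start. The longer CCAAT form occurred in 68 of 517 with a summit (13.2%, 10.5% to 16.3%) and in 4.16% (3.86% to 4.49%) of those without, a difference of 8.99 points (6.33 to 12.2). CCAAT alone occurred in 30.9% and 26.2%, a difference of 4.75 points (0.855 to 8.92), and the heat shock element in 2.51% and 5.62%, a difference of -3.10 points (-4.21 to -1.33). The median GC content was 63.7% with a summit and 47.8% without, so the comparison was repeated by GC. At 50% to 60% GC the longer form occurred in 16.1% (10.4% to 24.0%) with and 4.51% without a summit, a difference of 11.6 points (5.86 to 19.5). At 60% to 70% it was 16.9% (12.4% to 22.7%) and 3.60%, a difference of 13.3 points (8.66 to 19.2). Under 50% the difference was 0.981 points (-2.09 to 8.15), and at 70% or more it was 4.23 points (-0.262 to 10.9). The element differed by 0.00364 points (-2.26 to 5.28) at 50% to 60% GC and by -0.663 points (-2.16 to 2.42) at 60% to 70%.

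**Figure D4:**
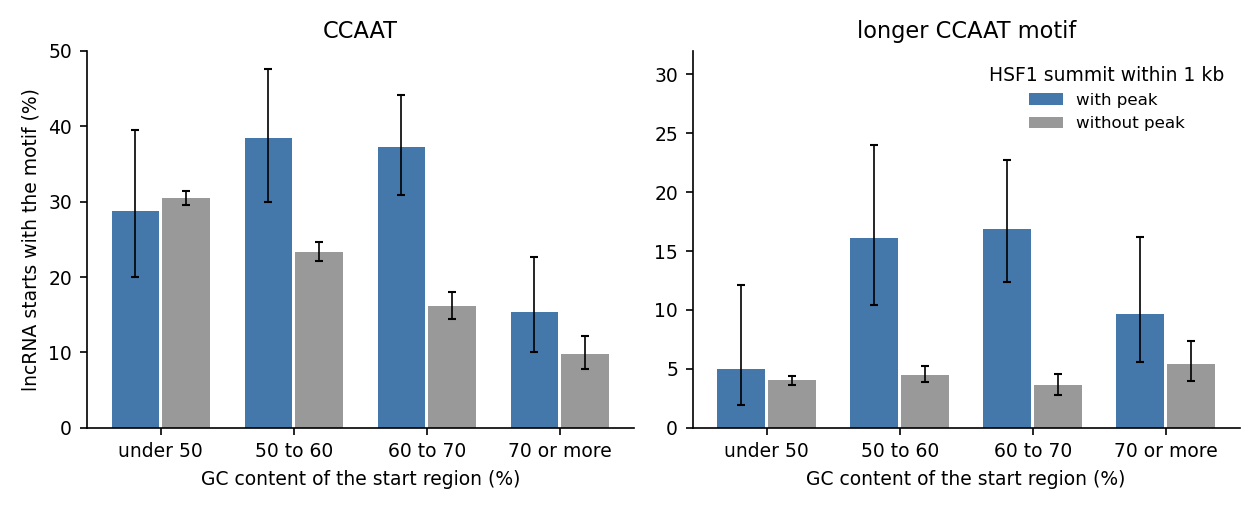
Percent of lncRNA starts with CCAAT (left) or its longer form (right) in the 150 bases before and 50 after the start, by GC content of that region, for starts with and without an HSF1 summit within 1 kb, bars with 95% Wilson intervals. Between 50% and 70% GC both motifs are more frequent at starts with a summit, with 16.1% and 16.9% against 4.51% and 3.60% for the longer form.

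A peak of the set lay within 1 kb of 1.85% of all annotated noncoding genes, 2.72% of lncRNA genes and 0.955% of snRNA genes, and the gene lists are read against these shares. The lists hold chosen genes, whereas the shares cover every annotated gene, and that of all noncoding genes includes pseudogenes. The lists and the shares were not matched for kind of gene or for expression. Among genes made by RNA polymerase III, 6 of 20 annotated ones were in the set, against 1.85% of noncoding genes, 4 had a peak but also a coding start within 1 kb of it (RN7SK, RMRP, RPPH1 and RN7SL3), and 10 had none. RPPH1, the RNA of RNase P, had the highest fold enrichment of the list at 12.5, and RN7SL3 had the lowest. The highest of the 6 in the set were at genes of 7SL, the RNA of the signal recognition particle, which targets secreted proteins to the endoplasmic reticulum. RN7SL2 had a pileup of 35 and a fold enrichment of 11.5 with its summit 98 bp inside the gene, and RN7SL1 had 27 and 10.4 at 172 bp, 372 bp from a transcript start of the ribosomal protein gene RPS29 on the opposite strand. The genes are 300 and 299 bases long and differ by 5 edits, and whether their reads were told apart was not tested. The peak at the U6 gene RNU6-7 (pileup 23, fold enrichment 6.42) lay 339 bp upstream of it, was nearer to the lncRNA ENSG00000286527 and had an H3K27ac peak. RNU6ATAC, the U6 counterpart of the minor spliceosome, had 10 and 5.19.

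Of the vault RNAs, which belong to a large cytoplasmic particle, VTRNA1-2 and VTRNA1-3 had low peaks close to their starts, and VTRNA1-1 and VTRNA2-1 had none. VTRNA1-2 had a pileup of 9 and a fold enrichment of 6.25, VTRNA1-3 had 6 and 5.56, and each summit lay 13 bp upstream of its gene. The 60 bases before each gene and its first 40, in capitals, are shown on the plus strand because the copies are alike in much of both parts. They part at the end of the capitals, and the whole genes of 89 bases differ by 11 edits.
VTRNA1-2 (chr5:140718865-140718964): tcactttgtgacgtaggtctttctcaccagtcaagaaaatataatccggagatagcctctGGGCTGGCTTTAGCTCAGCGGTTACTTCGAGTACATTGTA
VTRNA1-3 (chr5:140726098-140726197): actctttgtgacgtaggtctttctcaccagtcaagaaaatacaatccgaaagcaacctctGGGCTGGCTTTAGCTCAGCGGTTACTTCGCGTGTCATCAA

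Of the 19 annotated snRNA genes of RNA polymerase II on the list, 4 were in the set, against 0.955% of all snRNA genes, most of which are named as pseudogene copies. Of the others 2 had a coding start near the peak (RNU2-2P and RNU12) and 13 had no peak. RNU5D-1 and RNU5E-1 encode U5, which holds the exons together in the spliceosome, and had fold enrichments of 6.77 and 5.71. RNU4ATAC of the minor spliceosome had 5.10 and RNU1-1, the U1 snRNA that marks the 5′ splice site, had 4.71. All 4 summits lay downstream of the start, at 138 to 473 bp, and none had an H3K27ac peak. Outside the list, RNU7-94P, a copy of the U7 snRNA of histone mRNA processing, had 7.55. Of 10 starts of nucleolar and Cajal body RNAs 1 was in the set, against 0.911% of all such genes, the U3 gene SNORD3B-1 with a pileup of 10 and a fold enrichment of 6.18.

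Hosts of small nucleolar RNAs are lncRNAs whose introns are cut into these RNAs. Of 32 annotated hosts 8 were in the set, against 2.72% of all lncRNA genes, 6 had a coding start near the peak and 18 had no peak. SNHG10 was the highest with a pileup of 29 and a fold enrichment of 10.6, followed by SNHG29 (30 and 8.66), SNHG15 (16 and 7.80), SNHG25 (13 and 7.69) and SNHG8 (11 and 7.59). DANCR (6.80), SNHG30 (6.18) and SNHG6 (5.95) were lower. The summits of SNHG8, SNHG25, SNHG29 and DANCR lay within 40 bp of the start. The hosts GAS5, ZFAS1, SNHG3, SNHG5, SNHG19 and SNHG31 were the 6 left out for a coding start, with fold enrichments of 5.09 to 13.4.

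Of 24 widely expressed lncRNAs 5 were in the set, against the same 2.72%. MALAT1, a nuclear speckle RNA, had a pileup of 10 and a fold enrichment of 6.04 at 157 bp inside the gene, and KCNQ1OT1, the antisense RNA of an imprinted domain, had 10 and 5.79. FTX had 19 and 9.90 but at 963 bp from its start, CRNDE had 15 and 7.77, and LINC00662 had 11 and 6.38. NEAT1, TUG1 and NORAD were among the 17 with no peak. Of 21 lncRNAs linked to liver or liver cancer 1 was in the set, a count too small to set apart from 2.72%. This was MIR122HG, the host of the dominant hepatocyte miRNA, with a pileup of 12 and a fold enrichment of 5.75 at 291 bp inside the gene, and HULC, H19 and MEG3 had no peak. A missing peak says that none was called at this depth.

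The 21 miRNA peaks lay mostly upstream of the hairpin (15 of 21) and at a coding transcript start (11 of 21). MIR7845, beside KLF7, had a pileup of 25, a fold enrichment of 9.29 and an H3K27ac peak. MIR3175, beside CHD2, had 27 and 9.15 without one. MIR4485 had 49 and 6.63, was mitochondrial-like, and its mature miRNA matches bases 2563 to 2582 of the mitochondrial genome. Mature sequences in the RefSeq table for GRCh38.p14 were found for 18 of the 21 genes, and their 27 seeds were all different. The sequences of these 3 are given with the seed, bases 2 to 8, in capitals, to show that they share none.
hsa-miR-7845-5p: aAGGGACAgggagggucgugg
hsa-miR-3175: cGGGGAGAgaacgcagugacgu
hsa-miR-4485-3p: uAACGGCCgcgguacccuaa

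The remaining classes were thin. At small nucleolar RNAs the highest was SNORA70 on chromosome 19, with a pileup of 32 and a fold enrichment of 11.6 at 738 bp upstream, within 1 kb of a transcript start of FBXL12, and ENSG00000252192 on chromosome 12 had 9 and 6.17. The miscellaneous RNA ENSG00000278039 had 28 and 10.1. The rRNA peak, at the 5S gene RNA5S6 on chromosome 1, had 26 and 5.65 and lay upstream of the gene near the edge of the limit. The TEC loci ENSG00000280129 and ENSG00000280161 had fold enrichments of 10.7 and 8.65 behind ENSG00000279407. At loci typed as artifacts, ENSG00000280191, ENSG00000273590 and ENSG00000280071 on chromosome 21 had 7.59, 6.52 and 6.41. Of pseudogenes that were neither mitochondrial-like nor named as mitochondrial copies, the 52 peaks had a median fold enrichment of 7.29, 53.8% with GGGCGG and 13.5% with an H3K27ac peak.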

How the data were processed

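The HSF1 and H3K27ac CUT&Tag peak lists of untreated Huh7 cells were used. Per the labels and methods the authors aligned reads with Bowtie2, and per the file headers they called each library separately on hg38 with MACS 2.1.4, with no control library and a cutoff of p = 1e-05, with tags shifted by -100 bp and extended to 200 bp and duplicates removed. Pileup as deposited is a signal in whole extended tags and is not scaled for depth. Fold enrichment as deposited is a ratio to the local background, with 1 added to both. The authors' files also give -log10 p-values, not used for any comparison, and -log10 q-values, which served as a filter only, since the header says that they are not calculated although the column is filled. The authors' H3K27ac ChIP-seq lists were not used here, because their headers name hg19, and RNA-seq was not analysed here.

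Peaks on chromosomes 1 to 22 and X were classed by summit and GENCODE release 44 starts. Letters were counted within 100 bp of summits on both strands. Shares have Wilson, differences of shares Newcombe and medians order-statistic 95% intervals. Named are the 10 highest peaks by fold enrichment that are not repeat-like, 1 of which is not reported here, the 3 highest of each class, the highest mitochondrial-like peaks and the members of 6 gene lists. The peaks and lists were chosen with earlier results of these data known, and other names were chosen after their values were seen. Sequences came from hg38 and, for miRNAs, from RefSeq. Alternatives changed the distance, the kind of start, the q-value, the window, the motif, the overlap and the repeat-like peaks. Tools were pysam 0.24.0, pandas 2.3.3, networkx 3.6.1, numpy 2.4.6, scipy 1.17.1 and matplotlib 3.10.9 under Python 3.11.15, and the functions were tested on simulated data. For the heat shock element search these tests covered planted copies but hardly its false hits.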

Additional observations from a re-analysis of the deposited data

Results flagged for a closer look

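Outside every comparison lay 213 HSF1 peaks on chromosome Y and on unplaced or alternate scaffolds, a signal in data that the report did not use. Of these, 18 were on chromosome Y with a median fold enrichment of 7.36, and 195 were on scaffolds with a median of 6.56 and a pileup of at most 64.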

How the results depend on the processing

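No difference whose interval excludes 0 changed its direction under the alternatives run, and the number of peaks stayed between 516 and 697 over the planned ones. With repeat-like peaks left out the lncRNA share was 75.5%. The CCAAT difference from coding starts (-3.95 points) no longer included 0 within 2 kb (-5.74) or with the longer form (-7.27), and was smaller, with 0 inside the interval, within 50 bp (-1.76) or 200 bp (-1.03) of the summit and with starts within 500 bp (-2.47). The H3K27ac difference (2.25 points) likewise excluded 0 at 500 bp (2.69), at 2 kb (2.52), with any transcript start (2.77), under a stricter q-value (-log10 q of 5 or more, 3.04) and with at least 50% of the peak covered (1.91). The GC difference was -5.47 points at 2 kb and -6.97 with any transcript start, and the share of lncRNA starts was 3.62% at 2 kb and 2.72% under the stricter q-value. The other 36 planned values kept their side of 0 or moved by less than their interval. The heat shock element difference, which includes 0 in each of its intervals, ran from -0.849 to 0.0230 points. All lncRNA genes tested are of GENCODE level 1 or 2, so that choice changed nothing.

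Some alternatives were added after seeing the data. Without the peaks near any coding transcript start, the lncRNA share was 66.2% and the GC difference -6.97 points. Without genes named as copies of mitochondrial genes and repeat-like peaks, the lncRNA share was 80.1% and the GC difference -2.49 points. The CCAAT difference was then -4.79 points (-8.85 to -0.512) and no longer included 0. Without near copies the H3K27ac difference was 0.834 points (-1.48 to 3.61). The other 15 added values kept their side of 0 or moved by less than their interval. The causes of these shifts were not tested.

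No paired analysis was possible because each antibody gave 1 library. The median pileup was 13 tags and 5.70% of H3K27ac tags were kept, so a missing peak says little. Library and antibody cannot be told apart. Peaks were called without a control, and how reads of near-identical copies were placed was not tested.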
